A study of Mus musculus with 10 samples.

Results

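Chemokine ligand and receptor genes were examined in RNA sequencing of macrophages sorted from the small intestine of mice 24 h after experimental stroke. Every row of the deposited gene table was taken whose symbol began with Ccl, Cxcl, Ccr or Cxcr followed by a digit, apart from pseudogene symbols ending in -ps and 1 receptor gene that the selection left out. This gave 39 genes, 26 ligands and 13 receptors, of the 17279 genes listed. Of the 51 protein-coding genes of the GENCODE M21 annotation that match the rule, 38 were listed, and Cxcl11, which that annotation calls a polymorphic pseudogene, was the remaining member. The other 13, among them Cxcr1, Cxcr2, Ccr8, Ccl19, Ccl20 and Ccl21a, were not analysed here. Every listed gene had at least 10 counts in its second highest library, so the table holds no gene below that level.

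The mice carried the C57BL6/J genotype and underwent sham surgery or permanent middle cerebral artery occlusion (pMCAO), a stroke model in which an artery supplying the brain is closed and not reopened. After 24 h the mucosal layer was peeled from the whole small intestine and CX3CR1-GFP+ cells of the lamina propria were collected by fluorescence-activated cell sorting. CX3CR1 is the fractalkine receptor, which most macrophages of the gut carry, and the labels name neither the reporter allele nor the age or sex of the animals. There were 5 sham and 5 pMCAO libraries, called biological replicates in the labels, and the description of replicate 1 of each group carries the word pool.

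Chemokines are small secreted proteins that draw leukocytes along a gradient, and their receptors are G protein-coupled receptors on the cells that respond. Ligands with the first 2 cysteines adjacent form the CC family (Ccl) and those with a residue between them the CXC family (Cxcl). Macrophages of the gut wall are a source of ligands for monocytes, neutrophils and T cells, whereas several receptors of the family, such as Ccr9 and Ccr10, are best known from the lymphocytes and plasma cells that home to the intestine.

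The libraries held between 18894151 and 60665972 counts after sham surgery and between 6430643 and 28672285 after pMCAO, so that 1 count was worth at most 0.156 counts per 1000000 counts (CPM). The 10 macrophage markers, among them Cd68, Csf1r and C1qa, summed to between 3626 and 9384 CPM per library, but markers of other cells were also counted. The 4 plasma cell markers summed to between 639 and 25304 CPM and the 4 listed mast cell markers to between 397 and 25728 CPM. Defining neutrophil markers S100a9, Ly6g, Camp and Mpo were not listed. The 4 listed markers S100a8, Retnlg, Ngp and Csf3r summed to between 58.5 and 134 CPM, most of it Csf3r (52.8 to 133 CPM). Sham replicate 5 and pMCAO replicate 4 stood apart in Xist, the transcript of the inactive X chromosome, at 2237 and 4686 CPM against 1.27 to 4.88 CPM in the other 8 libraries. None of the 16949 genes tested passed an adjusted p of 0.05 between pMCAO and sham (edgeR's quasi-likelihood test with Benjamini-Hochberg adjustment), 799 were at an unadjusted p under 0.05 (581 of 16753 without both of these libraries), and DESeq2 gave 3 genes at an adjusted p under 0.05.

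Levels of the 39 genes, divided by exon length (CPM per kb), ran from 0.222 to 623 as means over the 10 libraries. The mean was above 100 CPM per kb for 9 genes, between 10 and 100 for 9, between 1 and 10 for 16 and below 1 for 5. Of the 9 highest, 8 were ligands, namely Ccl3, Ccl4, Ccl12, Ccl7, Cxcl2, Ccl5, Ccl6 and Ccl8, and the receptor was Ccr1. Ccl3, a ligand of Ccr1, stood first with a mean level of 673 ± 489 CPM per kb after sham surgery (SD, n = 5) and 574 ± 235 CPM per kb after pMCAO. Ccl4 followed at 321 ± 151 and 221 ± 124 CPM per kb, and its libraries overlapped those of Ccl3, Ccl12, Ccl7 and Cxcl2 in level. Cxcl12, Cxcl3, Ccr3, Ccl28 and Cxcl11 were lowest, from 0.222 CPM per kb for Cxcl11 to 0.988 for Ccl28. The order was much the same in both groups, with 9 of the 10 highest genes shared and 3 genes moving by more than 3 ranks.

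**Figure D1:**
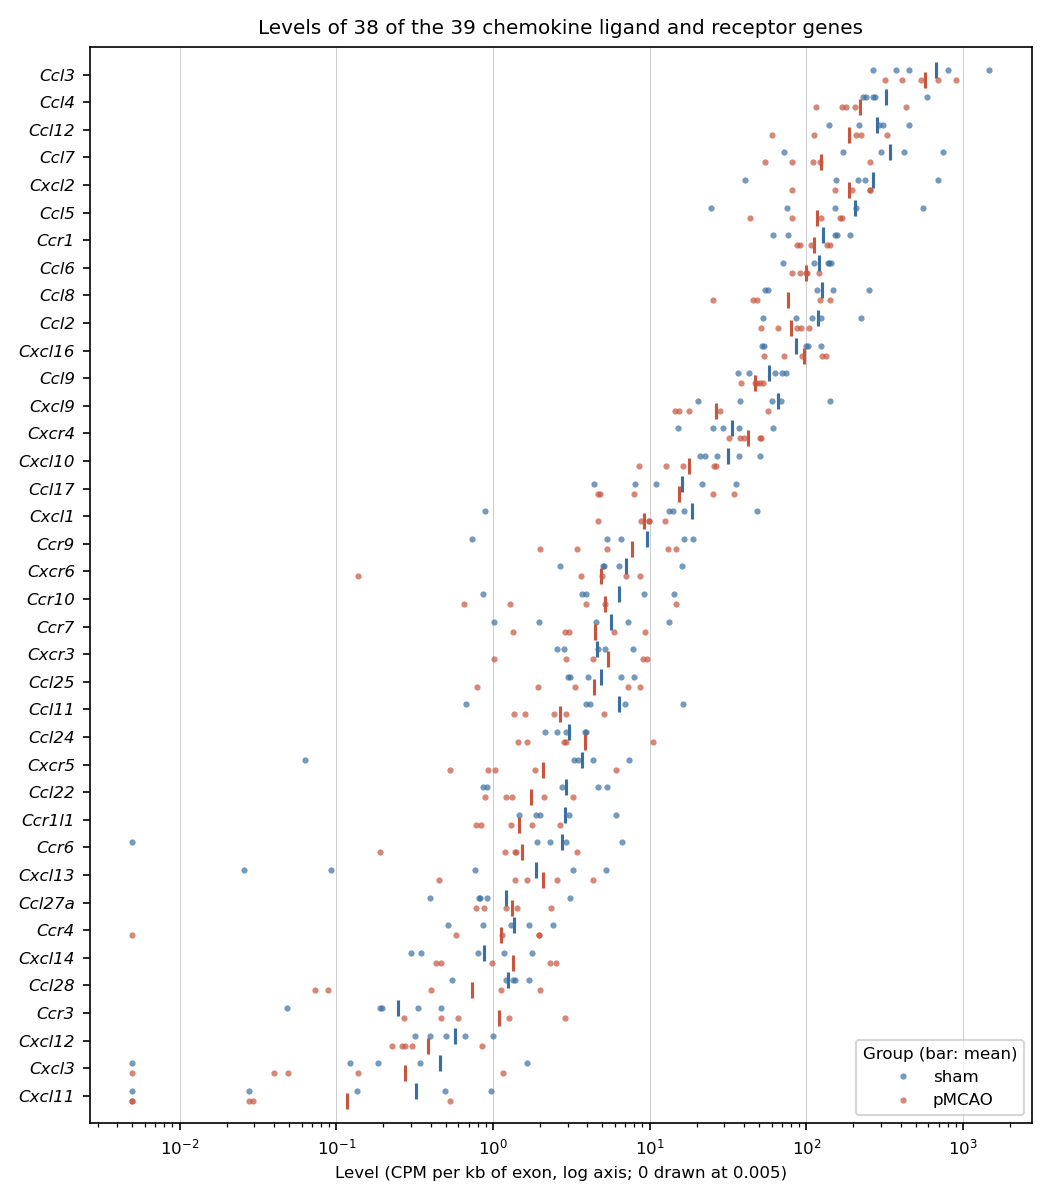
Level of 38 of the 39 genes in each library, in CPM per kb of exon on a log axis; points are libraries, blue for sham and red for pMCAO, and bars are group means. Ccl3 is highest, at means of 673 and 574 CPM per kb, the genes below 1 CPM per kb lie at the bottom, and the points of both groups overlap in every row.

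The first question was whether any of these genes differed between post-stroke and sham-operated mice. Of the 39 genes, 38 passed the filter on low counts, and Cxcl11 did not. None passed an adjusted p of 0.05 (edgeR's quasi-likelihood test with Benjamini-Hochberg adjustment), and the adjusted p lay between 0.922 and 0.999, against a background of 0% of all genes called. At an unadjusted p under 0.05 there were 3 members. Ccr3 was the 1 with higher counts after pMCAO, where the background was 2.26%, and Cxcl9 and Ccl7 were the 2 with lower counts, where it was 2.45%. In either direction the background was 4.71%. No member had groups that did not overlap in CPM, against 0.938% of all genes. Without sham replicate 5 and pMCAO replicate 4, Cxcl1 and Cxcl12 did not overlap, 2 of the 38 against 2.72% of all genes.

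The estimated fold changes were nevertheless mostly below 0. Of the 38 tested genes, 30 had a log2 fold change below 0, against 50.6% of all genes, and their median log2 fold change was −0.42 against −0.0059 over all genes. Among ligands 20 of 25 were below 0 with a median of −0.63, and among receptors 10 of 13 with a median of −0.26. Without sham replicate 5 and pMCAO replicate 4, 29 of the 38 were below 0 against 51.3% of all genes, with a median of −0.49, and the counts were 21 of 25 ligands (median −0.61) and 8 of 13 receptors (median −0.14). Without them 6 of the 7 inflammatory CC ligands and all 3 neutrophil-attracting CXC ligands were below 0. Without sham replicate 4 alone, 27 of 39 members were below 0 (median −0.37), against 50% of all genes. In that fit 6 of the 7 inflammatory CC ligands but only 1 of the 3 neutrophil-attracting CXC ligands were below 0.

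Markers of several other cell types had estimates in the same direction, none past an adjusted p of 0.05 in edgeR's quasi-likelihood test. All 8 T and natural killer cell markers (median log2 fold change −0.72), all 5 B cell markers (median −0.55) and all 4 listed mast cell markers (median −1.49) were below 0, as were 7 of 9 epithelial markers (median −0.39), whereas 4 of 10 macrophage markers were (median 0.10). Without sham replicate 5 and pMCAO replicate 4 the counts were 5 of 8 (median −0.14), 3 of 5 (median −0.086), 3 of 4 (median −0.81), 5 of 9 (median −0.0024) and 6 of 10 (median −0.20) in the same order. Of all genes, 50.6% were below 0 with all libraries and 51.3% without sham replicate 5 and pMCAO replicate 4. The part of these other cell types in the fold changes of the chemokine genes was not tested.

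Replicates of these genes also varied more than those of a typical gene, with a median biological coefficient of variation of 0.635 against 0.432 over all genes and a median standard error of 0.58 against 0.37 on the log2 scale. Members were mainly short genes, 26 of 39 lying in the 2 shortest of 5 equal groups of genes by exon length, where the median log2 fold change of all genes was −0.093 and −0.072. In bulk samples such as these, fewer cells of a type and less RNA per cell cannot be told apart.

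The count of 3 depended on single libraries. Leaving out sham replicate 5 gave 9 members at an unadjusted p under 0.05, against 4.89% of all genes in that fit. Leaving out sham replicate 5 and pMCAO replicate 4 together also gave 9 (3.47% of all genes), leaving out pMCAO replicate 3 gave 5 (5.87%), and leaving out sham replicate 3 gave 1 (3.56%). Of the 9 without sham replicate 5, 8 had lower counts after pMCAO, namely Ccl2, Ccl6, Ccl7, Ccl9, Ccl11, Cxcl1, Cxcl9 and Cxcl10, and the remaining gene was Ccr3. No member passed an adjusted p of 0.05 in any of these fits, the smallest being 0.373 over all 23 alternatives.

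**Figure D2:**
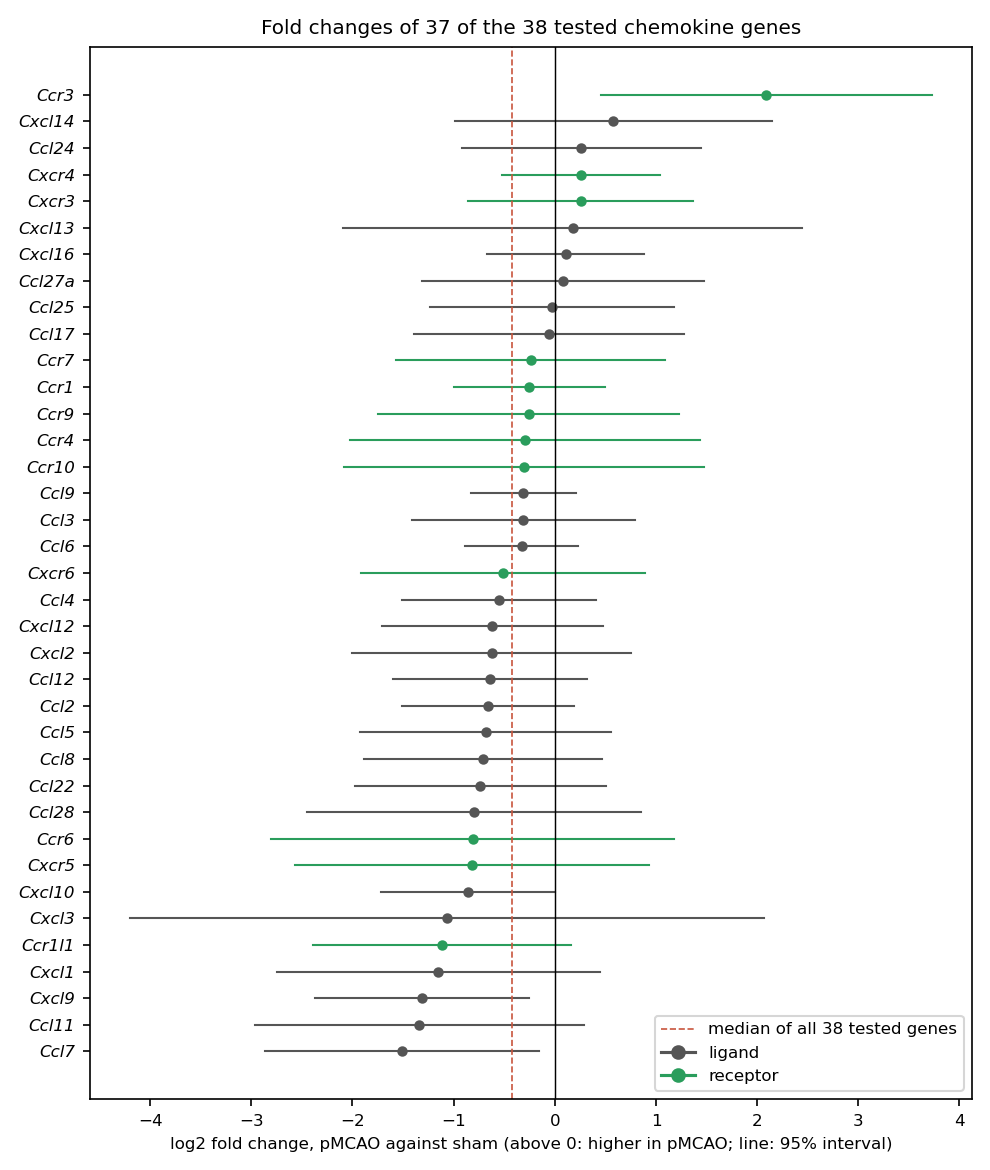
Log2 fold change of pMCAO against sham for 37 of the 38 tested genes, ordered by size, with 95% intervals; values above 0 are higher after pMCAO, ligands are grey and receptors green, and the dashed line is the median of all 38, −0.42. The interval excludes 0 for Ccr3, Cxcl9 and Ccl7 before adjustment for multiple testing, and 29 of the 37 points lie below 0.

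Inflammatory CC ligands, which recruit monocytes, T cells and natural killer cells, made up 6 of the 8 highest ligands per kb. All 7 listed members had a log2 fold change below 0, with a median of −0.66, against 50.6% of all genes below 0. Of the 7, 1 was at an unadjusted p under 0.05, against 4.71% of all genes in either direction. Ccl3 was at 618, 284, 346, 1125 and 205 CPM in sham replicates 1 to 5 and at 532, 313, 696, 412 and 245 CPM in pMCAO replicates 1 to 5. The highest value was that of sham replicate 4 and the lowest that of sham replicate 5, so that both ends of the range lay in the sham group. The log2 fold change of Ccl3 was −0.31 ± 0.51 (SE; 95% interval −1.41 to 0.79), and it was 0.30 without sham replicate 4.

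Ccl4, which lies beside Ccl3 on chromosome 11, was at 182, 159.5, 175, 389 and 152 CPM in the sham libraries and 119, 135, 287, 111 and 76.6 CPM after pMCAO. Sham replicate 4 was again highest, and only pMCAO replicate 3 came above the other sham libraries. This came to a log2 fold change of −0.55 ± 0.44 (95% interval −1.51 to 0.40), which was −0.11 without sham replicate 4 and −1.05 without pMCAO replicate 3. Ccl5, a ligand of Ccr1 that T and natural killer cells make in quantity, had the opposite order in these libraries. It was at 72.7, 147, 199, 23.6 and 536 CPM in the sham group, where replicate 4 was lowest and replicate 5 highest, and at 119, 158, 41.9, 77.3 and 162 CPM after pMCAO. Ccl5 had a log2 fold change of −0.68 ± 0.57 (95% interval −1.93 to 0.56), and it was −0.076 without sham replicate 5 and 0.038 without sham replicate 5 and pMCAO replicate 4.

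Ccl7, a monocyte attractant (chr11:82045712-82047525, GRCm38, plus strand), had the smallest p of the group. In sham replicates 1 to 5 it was at 241, 138, 337, 593 and 57.9 CPM, and in pMCAO replicates 1 to 5 at 88.3, 65, 204, 98.4 and 43.6 CPM. The group means were 273 ± 207 and 99.8 ± 61.8 CPM (SD, n = 5 each), and the ranges overlapped, with sham replicate 5 below 4 of the pMCAO libraries. For Ccl7 the log2 fold change was −1.51 ± 0.62 (SE; 95% interval −2.87 to −0.16; unadjusted p = 0.0313), a 2.86-fold lower estimate after pMCAO. Leaving out 1 library at a time gave values from −2.05 to −0.91, the latter without sham replicate 4 (unadjusted p = 0.13). Leaving out both libraries with high Xist levels gave −1.76 (unadjusted p = 0.0137).

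Ccl8 and Ccl12 are close neighbours of Ccl7 on chromosome 11. Ccl12, a monocyte attractant of the mouse, was at 157, 117, 241, 166 and 75.1 CPM after sham surgery and 112, 59.8, 120.4, 175 and 32.6 CPM after pMCAO, and its log2 fold change was −0.64 ± 0.44 (95% interval −1.60 to 0.32). For Ccl8, a ligand of Ccr8 in the mouse, the values were 75.7, 59.4, 129, 29.2 and 27.8 CPM and 72.6, 24.6, 62.1, 23.4 and 13 CPM, with a log2 fold change of −0.71 ± 0.54 (95% interval −1.89 to 0.46). Sham replicate 3 was highest and pMCAO replicate 5 lowest for both genes. Ccl2, the best-known monocyte attractant, had group means of 135 ± 72.3 and 91.4 ± 24.3 CPM and a log2 fold change of −0.66. With the replicate number of the labels as a block, Ccl8 and Ccl12 were at unadjusted p of 0.00211 and 0.000994 (edgeR's quasi-likelihood test). Both were at an adjusted p of 0.565. In that fit 7.69% of all genes were at an unadjusted p under 0.05, and the labels do not say what a replicate number marks.

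Ccl6 and Ccl9, ligands of Ccr1 that myeloid cells make, had the lowest coefficients of variation among the members, 0.322 and 0.306. Ccl6 was at 257, 248, 251, 199.7 and 127 CPM in the sham libraries and 179.8, 216, 164, 182 and 145 CPM in the pMCAO libraries. Sham replicate 5 was the lowest of all 10, and 4 of the 5 sham libraries were higher than 4 of the 5 pMCAO libraries. Log2 fold changes were −0.33 ± 0.26 (95% interval −0.88 to 0.23) for Ccl6 and −0.31 ± 0.24 (95% interval −0.83 to 0.21) for Ccl9, whose group means were 175 ± 50.5 and 144 ± 17 CPM. Without sham replicate 5 they were −0.52 and −0.49, at unadjusted p of 0.0127 and 0.0173.

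The 10 Ccl genes of chromosome 11, which lie between chr11:82035571-82037453 (Ccl2) and chr11:83662584-83664683 (Ccl4) in GRCm38, all had log2 fold changes below 0, with a median of −0.65. They are the 7 inflammatory ligands with Ccl6, Ccl9 and Ccl11, so this count holds the same genes as those groups. Of the 6 Cxcl genes of chromosome 5, 5 were below 0 with a median of −0.96. Over all genes 50.6% were below 0.

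Cxcl1, Cxcl2 and Cxcl3 attract neutrophils through Cxcr2, and all 3 had log2 fold changes below 0, against 50.6% of all genes. Cxcl2, the fifth highest gene per kb, was at 492, 445, 321, 1425 and 84.1 CPM in the sham libraries and at 531, 407, 526, 316 and 167 CPM after pMCAO. Sham replicate 4 was far above every other library and sham replicate 5 was lowest, with the pMCAO libraries between them. Cxcl2 had a log2 fold change of −0.63 ± 0.64 (SE; 95% interval −2.01 to 0.76) with all libraries and 0.20 without sham replicate 4. Cxcl1 had means of 35.1 ± 33.2 and 17.2 ± 5.37 CPM and a log2 fold change of −1.15, which was −0.33 without sham replicate 4. Cxcl3 was close to the detection limit, at 0 counts in sham replicate 3 and pMCAO replicate 3 and at most 5.77 CPM in sham replicate 4, and a count of 0 allows up to 0.0881 and 0.265 CPM in the former libraries. The fold change of Cxcl3, −1.07 on the log2 scale, became 0.60 without that library.

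These 3 genes stand together on chromosome 5, and the bases before their starts are shown because all 3 genes were highest in sham replicate 4. The sequences are the 250 bases before each start in RefSeq for GRCm38.p6, printed 5′ to 3′ on the gene's plus strand, at chr5:90890995-90891244 for Cxcl1, chr5:90903649-90903898 for Cxcl2 and chr5:90785851-90786100 for Cxcl3. Capitals mark matches to the kappaB consensus, the binding motif of NF-κB, searched on both strands.
Cxcl1: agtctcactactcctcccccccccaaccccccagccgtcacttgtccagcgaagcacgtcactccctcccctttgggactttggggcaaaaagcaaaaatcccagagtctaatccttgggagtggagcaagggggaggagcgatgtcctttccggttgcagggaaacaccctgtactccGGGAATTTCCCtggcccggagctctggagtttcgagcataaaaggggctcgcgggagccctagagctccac
Cxcl2: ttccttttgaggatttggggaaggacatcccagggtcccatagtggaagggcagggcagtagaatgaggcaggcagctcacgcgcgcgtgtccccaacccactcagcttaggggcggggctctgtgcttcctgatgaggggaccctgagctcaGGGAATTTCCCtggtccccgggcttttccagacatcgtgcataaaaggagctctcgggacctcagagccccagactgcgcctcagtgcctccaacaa
Cxcl3: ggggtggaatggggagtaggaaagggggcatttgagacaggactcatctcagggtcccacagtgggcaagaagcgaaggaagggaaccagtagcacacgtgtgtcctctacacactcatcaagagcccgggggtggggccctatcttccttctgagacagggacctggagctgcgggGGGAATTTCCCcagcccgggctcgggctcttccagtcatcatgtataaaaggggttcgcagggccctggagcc
Each window held the same run, GGGAATTTCCC, made of 2 overlapping matches on opposite strands that were read as 1 site. It began 71 bases before the start of Cxcl1, 97 before that of Cxcl2 and 73 before that of Cxcl3. Windows were at hand for 27 of the 39 members, and 8 of the 27 held a kappaB match, as did 8.23% of the 27025 genes with a window.

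**Figure D3:**
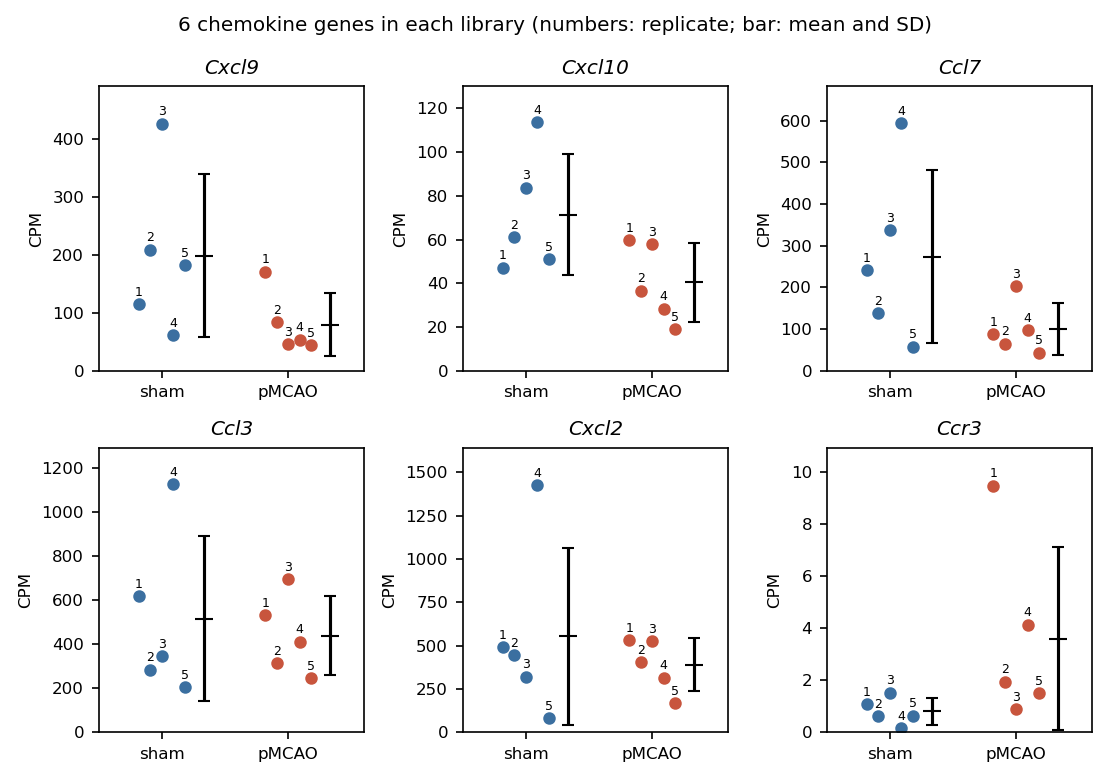
CPM of 6 chemokine genes in each library, with the replicate number beside each point and the mean and SD of each group at its right. Cxcl9, Cxcl10 and Ccl7 have lower means after pMCAO with overlapping groups, sham replicate 4 is highest for Ccl3 (1125 CPM) and Cxcl2 (1425 CPM), and the Ccr3 mean rests largely on pMCAO replicate 1 (9.49 CPM).

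Cxcl9 and Cxcl10 are interferon-inducible ligands of Cxcr3 that attract activated T cells. Cxcl9 (chr5:92321347-92328079, minus strand) was at 115, 209, 427, 61.5 and 182 CPM in sham replicates 1 to 5 and at 171, 84.6, 46.2, 53.9 and 43.8 CPM in pMCAO replicates 1 to 5. In the pMCAO group all libraries but replicate 1 were below 100 CPM, whereas in the sham group only replicate 4 was. Group means were 199 ± 139.8 and 80 ± 53.6 CPM (SD, n = 5 each). For Cxcl9 the log2 fold change was −1.31 ± 0.49 (SE; 95% interval −2.37 to −0.25; unadjusted p = 0.0192), a 2.49-fold lower estimate after pMCAO. Every alternative kept it below 0. It was −0.84 without sham replicate 3 (unadjusted p = 0.0792), the library with the highest value. Without both libraries with high Xist levels it was −1.29 (unadjusted p = 0.0448).

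Cxcl10 was at 47.1, 61, 83.8, 114 and 51.1 CPM in the sham libraries and at 59.7, 36.7, 58.1, 28.5 and 19.2 CPM in the pMCAO libraries. The highest 3 values were sham and the lowest 3 were pMCAO, and the other 4 lay close together between 47.1 and 59.7 CPM. The estimate for Cxcl10 was a log2 fold change of −0.86 ± 0.40 (SE; 95% interval −1.72 to 0.00486; unadjusted p = 0.0511). Without sham replicate 4 it was −0.54 (unadjusted p = 0.17). Cxcl11, the other gene of this group, was not tested, and its counts were 0 in sham replicate 2 and in pMCAO replicates 3 and 4, which allows up to 0.0885, 0.265 and 0.259 CPM there. Its level was at most 3.67 CPM, and 41.7% of its exon bases also lie in Gm2673 on the opposite strand.

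The windows before Cxcl10 and Cxcl9, at chr5:92348890-92349139 and chr5:92328080-92328329 and printed 5′ to 3′ on the minus strand, are shown because these genes had the lowest p among the CXC ligands. Capitals mark kappaB matches and the interferon-response motif, GAAA, any 2 bases and GAAA again, both searched on both strands.
Cxcl10: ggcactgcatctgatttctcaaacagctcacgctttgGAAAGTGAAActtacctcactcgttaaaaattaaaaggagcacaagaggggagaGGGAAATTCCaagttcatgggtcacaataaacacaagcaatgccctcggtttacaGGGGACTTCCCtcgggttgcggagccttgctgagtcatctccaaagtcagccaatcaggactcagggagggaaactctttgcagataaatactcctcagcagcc
Cxcl9: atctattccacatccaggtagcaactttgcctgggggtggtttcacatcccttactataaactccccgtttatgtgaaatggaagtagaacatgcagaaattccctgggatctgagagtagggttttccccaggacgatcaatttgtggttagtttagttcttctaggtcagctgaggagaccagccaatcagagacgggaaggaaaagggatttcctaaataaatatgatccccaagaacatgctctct
In the Cxcl10 window GAAAGTGAAA stood 213 bases before the start, and kappaB matches began 159 and 104 bases before it, the latter being 2 overlapping matches. The Cxcl9 window held neither motif, nor the STAT motif TTCNNNGAA, where N is any base, and this lack of a match says only that these letters are not in this window. The interferon-response motif was found before 2 of the 27 members with a window, Cxcl10 and Cxcl14, and before 3.46% of all genes. TTCNNNGAA was found before 4 members, Ccl17, Ccr1l1, Ccr6 and Cxcl14, and before 8.13% of all genes.

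Ligands linked to type 2 immunity and regulatory T cells were low. Ccl11 (eotaxin, a ligand of the eosinophil receptor Ccr3) had means of 6.93 ± 6.47 and 2.91 ± 1.61 CPM, and sham replicate 4 was highest at 17.7 CPM. Its log2 fold change was −1.34 (95% interval −2.97 to 0.28), and −0.54 without that library. The Ccr4 ligands Ccl17 and Ccl22, which dendritic cells make, had log2 fold changes of −0.06 and −0.74. Ccl17 was highest in sham replicate 5 (18.3 CPM) and pMCAO replicate 5 (17.8 CPM), where the 5 dendritic cell markers also had their highest sums, 668 and 588 CPM against 365 CPM or less in the other 8 libraries. The next highest Ccl17 value, 13.1 CPM, was in pMCAO replicate 1, the library with the lowest marker sum, 153 CPM. The T and natural killer cell, B cell and mast cell marker sums were likewise the highest of their group in replicate 5. The part of dendritic cells and of these other cells in the Ccl17 values was not tested. Ccl24, another Ccr3 ligand, had means of 3.99 ± 1.02 and 5.00 ± 4.85 CPM and its highest value, 13.5 CPM, in pMCAO replicate 4. The Ccl24 log2 fold change was 0.26, and it was −0.50 without that library.

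Homeostatic and lymphoid ligands were near the bottom of the range. Cxcl12, which stromal cells make and which retains Cxcr4-bearing cells in tissues, was at 8.14, 2.59, 5.40, 4.08 and 3.26 CPM in the sham libraries and 1.87, 2.23, 2.48, 6.98 and 2.15 CPM after pMCAO. Its highest pMCAO value was in replicate 4, the library with the highest sum of 7 stromal and endothelial markers, 333 CPM against 83.7 to 135 CPM in the other 9. Lyve1 alone gave 259 CPM of that sum. Dcn was also highest in this library, whereas Pecam1, Cdh5, Col1a1, Col3a1 and Pdgfra were highest in other libraries. Cxcl12 had a log2 fold change of −0.62 ± 0.50 (95% interval −1.71 to 0.47), and −1.11 (unadjusted p = 0.0407) without pMCAO replicate 4. The macrophage marker sum was also highest in pMCAO replicate 4, at 9384 CPM against 7772 CPM or less in the other 9. The part of stromal cells and of macrophages in the Cxcl12 values was not tested.

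Cxcl13, the B cell attractant of lymphoid follicles, ranged widely within each group. It was at 6.06, 0.0295, 0.881, 0.106 and 3.71 CPM in the sham libraries and 2.95, 0.523, 1.59, 5.00 and 1.89 CPM after pMCAO, so that sham replicates 2 and 4 held hardly any. Its fold change of 0.18 ± 1.04 on the log2 scale had a 95% interval of −2.09 to 2.44, which allows a change of several fold in either direction. Cxcl14, a ligand of epithelial and stromal cells, was at 1.46, 2.15, 3.23, 0.635 and 0.544 CPM and 4.20, 4.60, 0.796, 1.81 and 0.852 CPM. At 0.58 ± 0.72 on the log2 scale (95% interval −0.99 to 2.15), its fold change was the highest after that of Ccr3.

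Among ligands of mucosa and skin, Ccl25 is the small intestinal ligand of Ccr9 and is made by epithelial cells. It was at 48.8, 23.1, 29.9, 22.4 and 58.8 CPM in the sham libraries and 25, 64.5, 54.5, 14.5 and 5.89 CPM after pMCAO. The 2 lowest values, in pMCAO replicates 4 and 5, came in the libraries with the lowest sums of 9 epithelial markers, 147 and 261 CPM against 455 to 1169.6 CPM elsewhere. Whether epithelial RNA sets the Ccl25 values was not tested. Ccl25 had a log2 fold change of −0.03 ± 0.56 (95% interval −1.24 to 1.18).

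Ccl28, a ligand of Ccr10 on plasma cells, was at 5.89, 6.55, 2.67, 6.67 and 8.23 CPM in the sham libraries and 9.64, 5.48, 0.354, 0.431 and 1.96 CPM after pMCAO, lowest in pMCAO replicates 3 and 4. Its log2 fold change was −0.80 ± 0.76 (95% interval −2.45 to 0.85). Ccl27a had means of 2.88 ± 2.55 and 3.15 ± 1.48 CPM and a log2 fold change of 0.08. The mouse genome holds near-identical copies of this gene, and how reads that match several places were counted is not given in the sources used here, so its level is uncertain. Cxcl16, a membrane-anchored ligand of Cxcr6 on macrophages and dendritic cells, was among the higher genes at 86.5 ± 32.1 CPM per kb after sham surgery and 96 ± 34.4 CPM per kb after pMCAO. Its log2 fold change was 0.11 (95% interval −0.67 to 0.88), and 18.3% of its exon bases also lie in Zmynd15 on the opposite strand.

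Ccr1, a receptor of Ccl3 and Ccl5 on monocytes and macrophages, had the highest mean level of the receptors, 119.8 CPM per kb. It was at 442, 217, 431, 536 and 174 CPM in the sham libraries and 381, 258, 305, 401 and 247 CPM after pMCAO. Sham replicate 4 was highest and sham replicate 5 lowest, as for Ccl3. Ccr1 had a log2 fold change of −0.25 ± 0.34 (SE; 95% interval −0.995 to 0.49), and 0.0099 without sham replicate 4. Ccr1l1, which lies beside Ccr1 on chromosome 9 and resembles it in sequence, was at 3.54, 1.71, 2.20, 7.09 and 2.32 CPM in the sham libraries and 3.11, 0.907, 0.973, 2.07 and 1.52 CPM after pMCAO, with a log2 fold change of −1.11 ± 0.59 (95% interval −2.39 to 0.16; unadjusted p = 0.0807).

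Ccr3, the eotaxin receptor of eosinophils (chr9:124021972-124031689, plus strand), was the member with the smallest p and the largest log2 fold change above 0. It was at 1.09, 0.619, 1.53, 0.159 and 0.643 CPM in sham replicates 1 to 5 and 9.49, 1.95, 0.885, 4.14 and 1.52 CPM in pMCAO replicates 1 to 5. These values rest on 3 to 52 counts per sham library and 10 to 61 per pMCAO library. In pMCAO replicates 1, 2 and 4 it was above every sham library, and pMCAO replicates 3 and 5 lay within the sham range. For Ccr3 the log2 fold change was 2.09 ± 0.75 (SE; 95% interval 0.45 to 3.73; unadjusted p = 0.0165), a 4.26-fold higher estimate after pMCAO. Without pMCAO replicate 1, a library with the word pool in its description, it was 1.38 (unadjusted p = 0.0879). It was 1.53 without both pooled libraries (unadjusted p = 0.0915) and 1.90 without both libraries with high Xist levels (unadjusted p = 0.0615).

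Eosinophil markers Prg2 and Siglecf were also counted, and the defining marker Epx was not listed. Their sum lay between 2.43 and 18.4 CPM after sham surgery and between 4.39 and 31.0 CPM after pMCAO. The highest sum was in pMCAO replicate 2, where Ccr3 was at 1.95 CPM, and the sum in pMCAO replicate 1, where Ccr3 was highest, was 14.6 CPM. The part of eosinophils in the Ccr3 values was not tested.

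Ccr9, the gut-homing receptor of T cells and plasma cells, varied widely among libraries of the same group. It was at 55.2, 169.8, 67.1, 7.52 and 193 CPM in the sham group and 55, 152, 20.4, 35.1 and 135 CPM after pMCAO, lowest in sham replicate 4 and highest in sham replicate 5. Ccr9 had a log2 fold change of −0.26 ± 0.68 (95% interval −1.75 to 1.23). Of its exon bases, 21.5% also lie in other annotated genes, with Gm17200 on the same strand, so part of its counts could belong to them.

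Ccr10, the receptor of IgA plasma cells, was at 6.78, 24.8, 16, 1.48 and 6.41 CPM in the sham libraries and 9.02, 25.3, 2.21, 1.12 and 6.81 CPM after pMCAO. It was highest in sham replicate 2 and pMCAO replicate 2, where the plasma cell markers Jchain, Mzb1, Sdc1 and Tnfrsf17 summed to 22424 and 25304 CPM against 639 to 8589 CPM in the other 8 libraries. The lowest values came in sham replicate 4, pMCAO replicate 4 and pMCAO replicate 3, whose marker sums were 639, 1351 and 947 CPM, the lowest of all. The part of plasma cells was not tested. The log2 fold change of Ccr10 was −0.31 ± 0.82 (95% interval −2.09 to 1.47).

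Ccr6 and Cxcr5, receptors of B cells and of some T cells, were nearly absent from sham replicate 4. Ccr6, the receptor of Ccl20, was at 5.35, 6.81, 4.44, 0 and 15.6 CPM in the sham libraries and 3.27, 2.76, 0.442, 3.19 and 8.04 CPM after pMCAO. A count of 0 in sham replicate 4 allows up to 0.159 CPM. Cxcr5, which guides cells to Cxcl13, was at 11.6, 14.5, 11, 0.212 and 24.7 CPM and 3.42, 6.17, 1.77, 3.10 and 20.2 CPM. The B cell markers were lowest in sham replicate 4 and pMCAO replicate 3, at 63.5 and 49.1 CPM, and highest in sham replicate 5 and pMCAO replicate 5, at 430.4 and 391 CPM, as both receptors were. The part of B cells was not tested. Log2 fold changes were −0.81 ± 0.92 (95% interval −2.81 to 1.18) for Ccr6 and −0.82 ± 0.80 (95% interval −2.56 to 0.93) for Cxcr5.

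Ccr7, which takes dendritic cells and T cells to lymph nodes, was at 2.01, 14.4, 9.02, 3.86 and 26.4 CPM in the sham libraries and 2.64, 11.7, 6.02, 5.69 and 18.5 CPM after pMCAO. It too was highest in replicate 5 of each group, the libraries with the highest dendritic cell marker sums. Itgae gave 378 and 175 CPM of these sums. The sums of the T and natural killer cell, B cell and mast cell markers were also the highest of their group there. The part of any of these cells in the Ccr7 values was not tested. Its log2 fold change was −0.24 ± 0.61 (95% interval −1.57 to 1.09). Ccr4, a receptor of regulatory and type 2 T cells, had means of 4.19 ± 2.28 and 3.49 ± 2.66 CPM, no counts in pMCAO replicate 3 (up to 0.265 CPM allowed) and a log2 fold change of −0.29.

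Of the CXC receptors, Cxcr4, the receptor of Cxcl12 found on most leukocytes, had the highest mean level, 38 CPM per kb. It was at 46.1, 67.2, 27.3, 110.2 and 53.2 CPM in the sham libraries and 72.8, 91.9, 68, 58.2 and 93 CPM after pMCAO. The extremes were both sham, replicate 3 lowest and replicate 4 highest, and the pMCAO libraries lay between them. Cxcr4 had a log2 fold change of 0.26 ± 0.36 (95% interval −0.52 to 1.04), and 0.68 (unadjusted p = 0.0304) without sham replicate 4.

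Cxcr6, the receptor of Cxcl16 on T and natural killer cells, was at 9.94, 9.70, 12.2, 5.19 and 31.2 CPM in the sham libraries and 13.7, 7.01, 0.265, 9.65 and 16.7 CPM after pMCAO. Sham replicate 5 was highest and pMCAO replicate 3 lowest, and the log2 fold change was −0.51 ± 0.65 (95% interval −1.91 to 0.89). Cxcr3, the receptor of Cxcl9 and Cxcl10 on activated T cells, was at 4.43, 8.11, 9.05, 4.92 and 13.6 CPM and 15.7, 16.6, 1.77, 7.58 and 5.07 CPM. The Cxcr3 log2 fold change was 0.26 ± 0.51 (95% interval −0.86 to 1.37), so that it differed in sign from both ligands, although no test compared them. The 8 T and natural killer cell markers summed to 577 CPM in sham replicate 5 and to 165 CPM in sham replicate 4, the highest and lowest of the 10 libraries. Cd4 gave 150 CPM of the sum in sham replicate 4 and 144 CPM in sham replicate 5. Cd3d, Cd3e, Cd3g, Cd8a and Nkg7 were highest in sham replicate 5 and lowest in sham replicate 4. Cd3e, for example, was at 59.8 and 0.688 CPM there. Cd8b1 and Ncr1 were also highest in sham replicate 5 but lowest in pMCAO libraries. Ccl5 and Cxcr6 were likewise highest in sham replicate 5, and the part of T cells was not tested.

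The ends of the range lay in the same few libraries for many of these genes. Sham replicate 4 was the highest library for 13 of the 39 members and the lowest for 6, and sham replicate 5 was the highest for 7 and the lowest for 10. For 26 members at least 1 end of the range lay in these sham libraries. How often this holds over all genes was not counted. These CPM leave out the TMM scaling factors of the fit, which were lowest in sham replicate 4 (0.842) and highest in sham replicate 5 (1.27). The 13 highest in sham replicate 4 were Ccl2, Ccl3, Ccl4, Ccl7, Ccl11, Ccl27a, Cxcl1, Cxcl2, Cxcl3, Cxcl10, Ccr1, Ccr1l1 and Cxcr4. The 7 highest in sham replicate 5 were Ccl5, Ccl17, Ccr6, Ccr7, Ccr9, Cxcr5 and Cxcr6, of which Ccl5, Ccl17, Ccr6, Ccr9 and Cxcr5 were lowest in sham replicate 4.

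Beside these values, the 10 early-response genes known to be induced by tissue dissociation had their highest sum in sham replicate 4 (11602 CPM). Their lowest sum was in sham replicate 5 (5625 CPM). Hspa1a and Hspa1b gave 719 and 1231 CPM of the sum in sham replicate 4. Junb, Atf3 and Hspa1b were highest in that library. Fos, Jun, Dusp1 and Ier2 were highest in sham replicate 1, and Fosb, Egr1 and Hspa1a in pMCAO libraries. The macrophage marker sum was lowest in sham replicate 5 (3626 CPM), whereas the mast cell, B cell, T cell and dendritic cell sums were highest there. The part of dissociation and of other cells in the chemokine values was not tested. Over the 5 sham libraries the summed level of the 26 ligands ran from 1942 to 5052 CPM with a median of 3049, and over the 5 pMCAO libraries from 1393 to 2938 CPM with a median of 2110, so that the groups overlapped. For the 13 receptors the sums were 727 to 1008 CPM with a median of 858 after sham surgery and 655 to 935 CPM with a median of 759 after pMCAO. Without sham replicates 4 and 5, an alternative chosen after the data were seen, 5 members were at an unadjusted p under 0.05, all lower after pMCAO, namely Ccl6, Ccl7, Ccl8, Ccl9 and Cxcl9, against 6.64% of all genes in that fit, and none passed an adjusted p of 0.05 in edgeR's quasi-likelihood test.

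**Figure D4:**
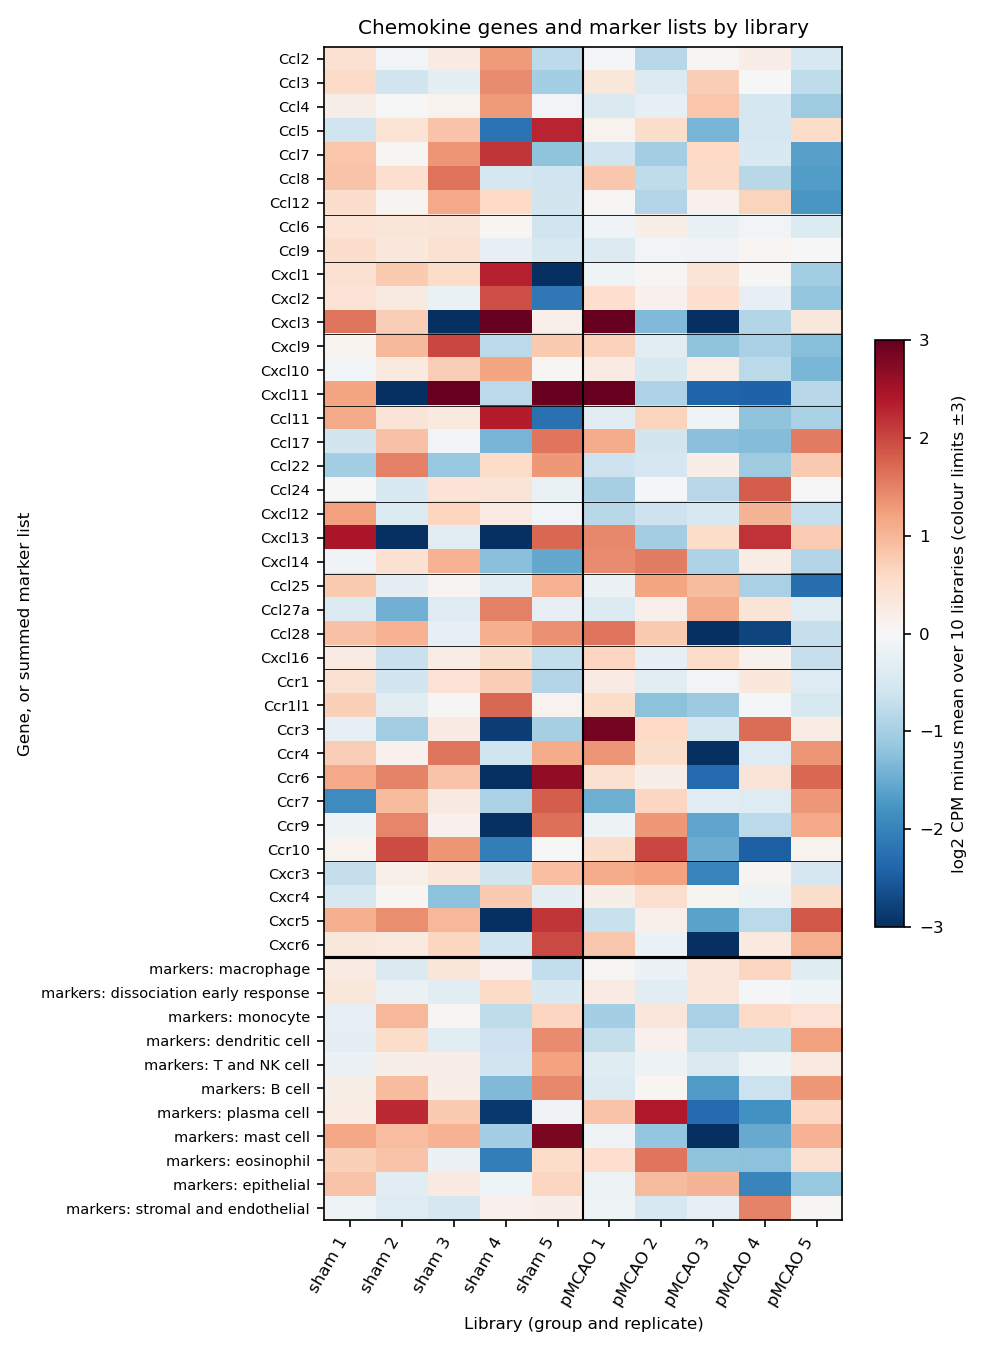
Log2 CPM of 38 of the 39 chemokine genes in each library minus its mean over the 10 libraries, with 0.5 counts added before the log, above the same for the summed CPM of 11 marker lists; red is above and blue below the mean, and the vertical line parts sham from pMCAO. Sham replicate 4 is red for Ccl3, Ccl7, Cxcl1 and Cxcl2 and blue for Ccr6, Ccr9 and Cxcr5, and sham replicate 5 shows the opposite.

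Ligands and receptors known to bind each other were then set side by side on the per kb scale. Of 30 such pairs, 21 had both genes listed, and the mean level of the ligand was above that of the receptor in 13 of the 21 and below it in 8. Ccl3 was at 623 CPM per kb against 119.8 for Ccr1. Cxcl16 was at 91.2 CPM per kb against 5.99 for Cxcr6, and Cxcl9 at 46.2 against 5.02 for Cxcr3. The order was the opposite for Cxcl12, at 0.479 CPM per kb against 38 for Cxcr4, and for Ccl25, at 4.67 against 8.68 for Ccr9. Macrophages and other cells in the sort are summed in each level, so that a pair need not come from the same cells.

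Other chemokine genes were looked up in a list of 11, of which 9 were listed and 8 tested. Of the 8, 3 had log2 fold changes above 0 and 5 below, where 50.6% of all genes were below 0. None was at an unadjusted p under 0.05, against 4.71% of all genes, or passed an adjusted p of 0.05 in edgeR's quasi-likelihood test. Cx3cr1, the receptor by which the cells were sorted, was at 207, 110.1, 228, 125 and 126 CPM in the sham libraries and 228, 159, 169, 218 and 122 CPM after pMCAO, with a log2 fold change of 0.15 ± 0.26 (95% interval −0.40 to 0.71). Pf4 (Cxcl4 in the family nomenclature), a platelet and macrophage chemokine, was at 535, 249, 490.5, 1043 and 172 CPM and 254, 204, 502, 424 and 149 CPM and again highest in sham replicate 4, with a log2 fold change of −0.77 ± 0.53 (95% interval −1.92 to 0.38). Ccrl2, an atypical receptor that binds chemerin, was at 205, 219.8, 158, 400.4 and 114 CPM and 229, 249, 344, 122 and 115 CPM, with a log2 fold change of −0.10. Xcl1, a ligand of lymphocytes, ranged from 0.0529 CPM in sham replicate 4 to 76.4 CPM in sham replicate 5, and its log2 fold change was −0.70. Log2 fold changes were −0.57 for Cx3cl1, 0.21 for Xcr1, −0.05 for Ackr3 and 0.83 for Ackr4. Ppbp was not tested, and its highest value was 10.4 CPM in sham replicate 4. Ackr1 and Ackr2 were not listed.

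The signalling genes downstream of the receptors had estimates on both sides of 0. Of 30 genes for G proteins, arrestins, kinases and Rac activators, 29 were tested, with Grk2 under its older symbol Adrbk1, and 16 had log2 fold changes above 0 and 13 below. Their median log2 fold change was 0.019, with a range of −0.35 to 0.30, and none was at an unadjusted p under 0.05 or passed an adjusted p of 0.05 in edgeR's quasi-likelihood test. The smallest p among those above 0 were those of Pik3cg, the catalytic subunit of phosphoinositide 3-kinase gamma (0.30 ± 0.15, unadjusted p = 0.0678), and Lyn, a Src family kinase (0.22 ± 0.17, unadjusted p = 0.235). Among those below 0 they were those of Gnb1, a G protein beta subunit (−0.22 ± 0.17, unadjusted p = 0.23), and Pxn, the focal adhesion protein paxillin (−0.24 ± 0.19, unadjusted p = 0.243).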

How the data were processed

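The submitters' processing notes name STAR, featureCounts and limma, and the builds GRCm38 and mm10, and their versions and the strand setting of the counting are not given in the sources used here. Libraries came from 2.0 ng of total RNA after removal of ribosomal RNA and were read as paired ends of 100 bases. The authors deposited 1 table with raw read counts per gene and, for each library, CPM values, which were not used here. The authors' own columns of log2 fold change, mean log2 expression, p-value and adjusted p-value hold their comparison and were not used. No column of per-sample values was left without a sample.

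CPM in the text are counts over the total of the library, and CPM per kb divide them by the joined exon length of the gene in GENCODE M21, found for 17193 of the 17279 genes. Genes passing filterByExpr (16949) were scaled by TMM and compared between 5 pMCAO and 5 sham libraries with edgeR 4.0.16 (glmQLFit and glmQLFTest, no covariate) in R 4.3.3, with Benjamini-Hochberg adjustment over all genes tested. Intervals of log2 fold changes are 95% intervals from the same fit. The labels call the libraries biological replicates, and p-values measure the spread between them. The smallest difference between any pair of libraries was far above counting noise (chi-square per degree of freedom 39.2), so none was counted as a repeat. The floor given for a count of 0 is 3 counts and covers counting error only. The procedure was tested on simulated data.

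Genes named with all 10 values were the 8 ligands and 6 receptors with the highest mean CPM per kb, the 4 smallest p in each direction, every member whose groups did not overlap, and Ccl25, Ccl28, Ccr9, Ccr10, Cxcr2, Ccr3, Ccr6, Ccr7, Cxcr5, Ccl5, Cxcr3, Cxcr6, Cxcl12, Cxcr4, Cxcl13 and Ccl21a where listed. The members, this rule and the lists of marker and signalling genes were chosen with earlier results of these data known. 1 CC receptor gene that the rule leaves out and 1 of the 39, which enters the counts and medians, are not reported here. Alternatives were DESeq2 1.42.0, limma 3.58.1 voom with and without quality weights, upper-quartile scaling, no scaling factor, 2 other filters, an offset for exon length, a surrogate variable (sva 3.50.0), a block on the labels' replicate numbers, and fits without libraries. Leaving out sham replicates 4 and 5 together was chosen after seeing the data.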

Additional observations from a re-analysis of the deposited data

Results flagged for a closer look

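The highest and the lowest library of each group of 5 were checked on log2 CPM for standing apart, by the gap to the nearest library over the range of the group against Dixon's limit of 0.71. Of 106 groups examined, 8 exceeded it, where chance gives about 1 in 20 groups, or 5.3. Of 78 groups of chemokine genes, 7 did. In sham replicate 4, Ccl4 stood high (ratio 0.81) and Ccr6 (0.804) and Cxcr5 (0.826) stood low. In pMCAO replicate 3, Ccr4 (0.757) and Cxcr6 (0.783) stood low. In pMCAO replicate 1, Cxcl11 stood high (0.717). In pMCAO replicate 4, Cxcl12 stood high (0.797), as did the summed stromal and endothelial markers (0.738). Of that sum, 333 CPM, Lyve1 alone gave 259 CPM. The macrophage marker sum was also highest in this library (9384 CPM). The part of stromal cells and of macrophages in the Cxcl12 value was not tested.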

How the results depend on the processing

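Over 23 alternatives no chemokine gene passed an adjusted p of 0.05 (smallest 0.373, edgeR, DESeq2 or limma), and genes past it stayed at 0 except for 3 with DESeq2. The median log2 fold change of the chemokine genes lay between −0.54 and −0.28. At an unadjusted p under 0.05 there were 7 members (and 11.1% of all genes) with limma-voom quality weights, 7 (6.29%) with 1 surrogate variable, 9 (3.47%) without sham replicate 5 and pMCAO replicate 4, 5 (6.64%) without sham replicates 4 and 5 (chosen after seeing the data) and 1 to 9 (3.36% to 7.38%) leaving out single libraries, against 3 (4.71%). With the replicate number as a block there were 6 (7.69%). The labels do not say what a replicate number marks. The correlations of the deviations of same-numbered libraries ran from −0.0055 to 0.372, 3 of 5 above 0.1, and 5 of 10 libraries correlated best with their own number, a hint of pairing from the data and not from the design. Under the block Ccl24 was −0.033 and Cxcr3 −0.028. Of 850 fold changes of 37 members 64 changed sign, and 18 of the 37 never did, 15 below and 3 above 0 (Ccr3, Cxcl14 and Cxcr4). Log2 fold changes that turned were, with limma-voom, Ccl11 0.011, Ccr9 0.022, Cxcl1 0.054 and Cxcr3 −0.14. With quality weights they were Ccl17 0.12, Ccl24 −0.12, Ccl3 0.029 and Cxcl3 1.26. With 1 surrogate variable they were Ccl17 0.25, Ccr6 0.24, Ccr7 0.044 and Ccr9 0.39 and with the length offset Ccl17 0.033. Without both pooled libraries they were Ccl25 0.24 and Cxcr3 −0.11. Without sham replicate 5 and pMCAO replicate 4 they were Ccl17 0.51, Ccl24 −0.62, Ccl25 0.29, Ccl27a −0.066, Ccl5 0.038, Ccr7 0.30, Ccr9 0.17, Cxcl13 −0.11 and Cxcl16 −0.052. Without sham replicates 4 and 5 they were Ccl17 0.037, Ccl3 0.063, Cxcl13 −0.043 and Cxcl3 0.42. Leaving out 1 library at a time gave −0.53 to 0.27 for Ccl17, −0.50 to 0.47 for Ccl24, −0.45 to 0.25 for Ccl25, −0.31 to 0.95 for Ccl27a, −0.63 to 0.30 for Ccl3, −0.47 to 0.0099 for Ccr1, −1.33 to 0.31 for Ccr10, −0.56 to 0.022 for Ccr4, −0.59 to 0.16 for Ccr7, −0.72 to 0.15 for Ccr9, −0.28 to 1.20 for Cxcl13, −0.086 to 0.35 for Cxcl16, −0.92 to 0.20 for Cxcl2, −3.16 to 0.60 for Cxcl3 and −0.14 to 0.50 for Cxcr3. The cause was not tested. Of the 8 highest ligands per kb, 7 were still among the 8 highest with the longest transcript or with TMM-scaled CPM. Few or 0 counts in single libraries limit what can be said of Ccr3, Ccr6, Cxcl3, Cxcl11 and Cxcl13. The low counts did not always fall in the libraries with the fewest counts. Cxcl13 had 1 count in sham replicate 2 (33913980 counts in all) and 19 in pMCAO replicate 1 (6430643 counts in all). The part of library depth was not tested.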

Other observations

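Mast cell proteases were counted in every library. Mcpt1, a granule protease of mucosal mast cells, was at 4117, 3098, 3642, 907 and 12319 CPM in sham replicates 1 to 5 and at 1554, 714, 167, 630.1 and 3439 CPM in pMCAO replicates 1 to 5. Its neighbour Mcpt2 was at 3616, 3429, 3473, 812 and 12066 CPM in the sham libraries and at 1625, 751, 155, 536 and 3408 CPM after pMCAO. All 4 listed mast cell markers had log2 fold changes below 0, −1.86 for Mcpt1 (unadjusted p = 0.018), −1.82 for Mcpt2 (unadjusted p = 0.0228), −1.17 for Cpa3 and −0.72 for Kit, and none passed an adjusted p of 0.05 in edgeR's quasi-likelihood test. Over all genes, 50.6% had a log2 fold change below 0 and 4.71% were at an unadjusted p under 0.05. Replicate 5 was highest in each group for Mcpt1 and Mcpt2.

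Of the 5 monocyte markers, Plac8 was at 204, 505, 308, 122 and 381 CPM in the sham libraries and at 131, 231, 61.9, 76.8 and 224 CPM after pMCAO, with a log2 fold change of −1.08 (unadjusted p = 0.0227). Vcan, which encodes versican, had a log2 fold change of −1.47 (unadjusted p = 0.045), and F13a1, a coagulation factor subunit of monocytes and resident macrophages, one of 1.28 with its highest value, 502 CPM, in pMCAO replicate 4. Ly6c2, the marker of classical monocytes, was at 47.9, 103, 26.9, 6.19 and 64.6 CPM after sham surgery and 21.5, 139.6, 2.57, 15.9 and 74.2 CPM after pMCAO, with a log2 fold change of 0.05.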
